A study of Mus musculus with 8 samples.

Results

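Secretory granule cargo and exocytosis genes were followed as a set of 44 genes, chosen by name for their roles as granule proteins, SNAREs, priming and docking factors, Rab GTPases and calcium sensors. All 44 were found by Ensembl ID in a table of 75078 genes, and 40 of them had enough counts to be tested among 15916 genes. RNA selected for poly(A) tails had been sequenced from αTC1-6, an established mouse cell line of pancreatic alpha cells. In 4 libraries (45, 46, 47 and 48) the cells had received a plasmid for overexpression of the transcription factor Yy1, and in 4 (31, 32, 33 and 34) an empty plasmid. In both groups transfection followed seeding by 24 h, and the DMEM carries the label 11 mM. Neither the time of harvest nor the share of cells that took up a plasmid is given in the labels used here. Nor do the labels say whether the samples were separate cultures, so p-values reflect sample-to-sample spread that may be technical, and any handling that differed between the groups cannot be told apart from the plasmid.

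Alpha cells store glucagon in dense-core granules, whose acidic granin proteins help to pack the hormone. A granule docks at the plasma membrane through Rab GTPases and their effectors, is primed by Munc13 and CAPS proteins, and fuses when a SNARE on the granule zips together with SNAREs of the membrane. Calcium entering through channels is read by synaptotagmins, which trigger this last step, and NSF with its adaptor takes the spent SNAREs apart again. Yy1 is a zinc finger protein that activates or represses many promoters.

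Levels are given in CPM, counts scaled to a common library size with TMM factors. Yy1 itself stood at 5897, 4814, 5118 and 5103 CPM with the Yy1 plasmid and at 177, 168, 175 and 181 CPM with the empty plasmid, a 29.9-fold difference. The libraries held 29680177 to 33347445 estimated counts with the Yy1 plasmid and 20679804 to 30570601 with the empty plasmid. Of 10 alpha cell markers 9 were at tested levels, led by Gcg, and Gc had 0 counts in all 8 libraries. Ins1, Ins2 and Ucn3, which mark beta cells, also had 0 counts in all 8, and the summed beta cell markers, nearly all Nkx6-1, were 52.1 ± 4.64 CPM with the Yy1 plasmid and 55.7 ± 2.2 CPM with the empty plasmid (SD, n = 4 each). The summed delta, PP and epsilon cell markers, nearly all Rbp4, were 1737 ± 66.2 CPM with the Yy1 plasmid and 1685 ± 131 CPM with the empty plasmid (SD, n = 4 each). Library empty plasmid 33, the shallowest, stood apart. For 70 of 2416 genes of at least 100 CPM it differed by more than 0.3 in log2(CPM + 1) from the mean of the other 3 libraries of its group, against 2 to 22 genes for each of the other 7 libraries. The ratios of Chga, Chgb and Scg2 and the sums of the granins and of the set are given with and without it. Intervals of Chgb, Rab3d, Unc13a and Syt5, which it moves, are also given without it.

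Promoters of 3 granins are shown because these genes have the highest levels of the set together with Ptprn and were high together in one library, and that of Nsf because it alone held the longer Yy1 motif. Each stretch is the 130 bases before the RefSeq transcript start, 5′ to 3′ along the gene, in build GRCm38.p6. The counts were made on another build, so these coordinates apply to the sequences alone. Capitals mark the cAMP response element (CRE, TGACGTCA, or its shorter form TGACGT) in Scg2, Chgb and Chga, and the Yy1 motif AANATGGCG in Nsf.
Scg2 (chr1:79440027-79440156, minus strand): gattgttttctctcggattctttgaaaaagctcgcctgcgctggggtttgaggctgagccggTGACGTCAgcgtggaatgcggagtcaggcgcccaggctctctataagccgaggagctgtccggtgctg
Chgb (chr2:132781512-132781641, plus strand): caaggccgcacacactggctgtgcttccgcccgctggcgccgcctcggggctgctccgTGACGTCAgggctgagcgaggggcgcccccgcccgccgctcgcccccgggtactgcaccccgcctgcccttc
Chga (chr12:102554811-102554940, plus strand): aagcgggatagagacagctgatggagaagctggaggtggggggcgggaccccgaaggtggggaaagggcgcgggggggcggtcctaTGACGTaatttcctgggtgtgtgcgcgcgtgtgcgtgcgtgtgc
Nsf (chr11:103954057-103954186, minus strand): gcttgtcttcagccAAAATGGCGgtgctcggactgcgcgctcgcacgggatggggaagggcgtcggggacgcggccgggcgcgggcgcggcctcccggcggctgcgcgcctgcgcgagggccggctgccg

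RefSeq promoter windows, from 250 bases before a start to 50 after it, were matched by symbol for 34 of the 44 genes, in 39 windows. No window was used for Syt7, Syt5, Vgf, Rims2, Snap25, Syt13, Doc2b, Syt4, Vamp3 and Vamp2. Both strands were searched. The full CRE was found for 3 of the 34 genes (Scg2, Chgb and Napa) and in 1.79% of all 32851 windows. The shorter CRE, which lies within the full one, was found for 5 of the 34, those 3 with Chga and Rab3a, and in 7.51% of all windows. AANATGGCG was found for Nsf and in 2.38% of all windows. The shorter Yy1 motif CCATNTT, which overlaps the longer one in Nsf, was found for Nsf, Rab3b and Ica1 and in 16.1% of all windows. A match is a run of letters and not a measured binding site. The log2 ratios (Yy1 plasmid over empty plasmid) of these 3 genes were 0.01 for Nsf, 0.19 for Rab3b and 0.01 for Ica1, none of them called.

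With Yy1 raised 29.9-fold, no gene of the set passed the test. By edgeR's quasi-likelihood test at an adjusted p under 0.05, 0 of the 40 tested genes were called, against 0.515% of all tested genes (0.496% higher and 0.0188% lower with the Yy1 plasmid). DESeq2 and limma-voom also called 0 of them. An unadjusted p under 0.05 was found for 4 of the 40, against 5.42% of all tested genes, and the libraries of the groups did not overlap for 2 of the 40, against 3.95%. The share called depends on level. Of all 6384 tested genes with an average log2 CPM of at least 5, only 1 was called, Yy1 itself. Of the 32 genes of the set at that level, 0 were called. An unadjusted p under 0.05 by edgeR was found for 2 of these 32, against 3.46% at that level. The groups did not overlap for 0 of the 32, against 2.58%. Of the 40 log2 ratios, 25 were positive and 15 negative, with a median of 0.00974 against -0.00249 over all tested genes. They ran from -0.17 in Vamp8 to 0.29 in Unc13b.

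The bounds on these ratios were narrow for most of the genes. The 95% interval of the fold change lay within 1.2-fold either way for 34 of the 40 genes, against 58.2% of all tested genes, and within 1.5-fold for 39 of 40, against 76% of all tested genes. Among genes with an average log2 CPM of at least 5, the 1.2-fold bound held for 30 of 32 genes of the set and for 97.1% of all tested genes. The 6 genes whose interval reached past 1.2-fold were Chgb, Stx3, Vamp8, Unc13b, Rab3b and Rab3d. Without empty plasmid 33 the intervals of the log2 ratio of Chgb (-0.0335 to 0.147) and Rab3d (0.0102 to 0.238) lay within 1.2-fold. That of Unc13a (-0.281 to -0.0703) then reached past it. In bulk libraries such as these, fewer cells that express a gene and less of its RNA in each cell cannot be told apart.

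**Figure D1:**
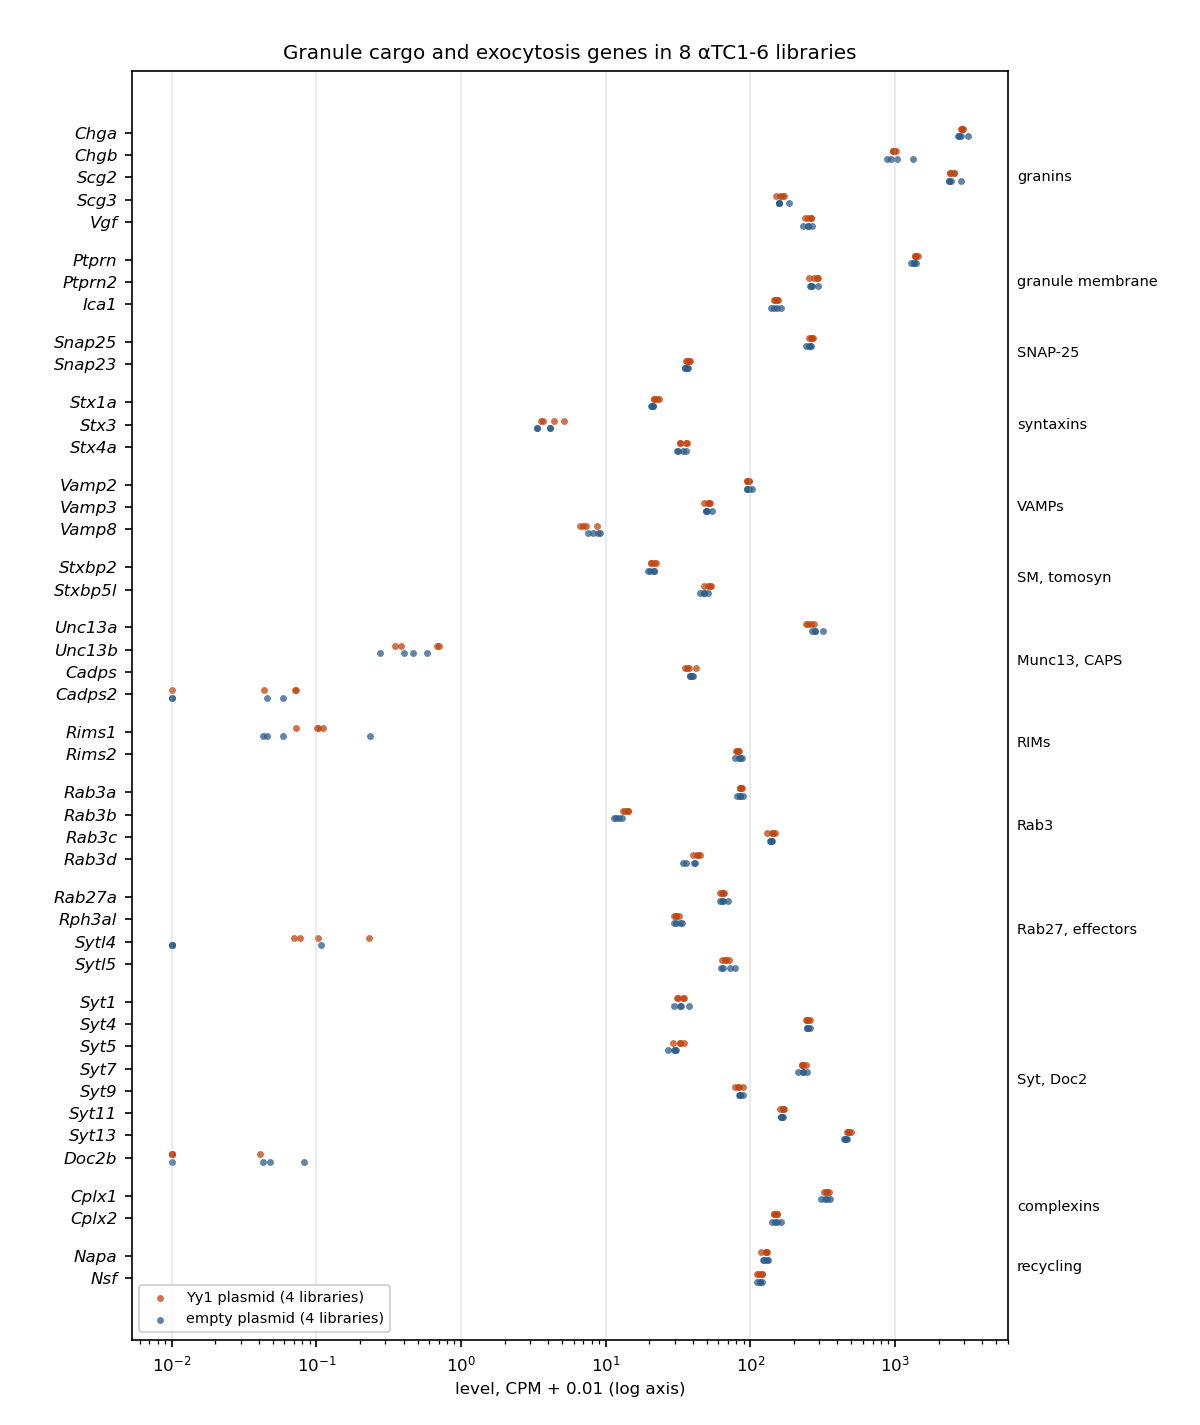
Level of each of the 44 genes in CPM + 0.01 on a log axis, grouped by role, with 1 point per library in the colours of the legend, Yy1 plasmid above empty plasmid. The points of both plasmids lie close together for the tested genes, and Cadps2, Rims1, Sytl4 and Doc2b lie at 0.226 CPM or less in every library.

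The granins Chga, Scg2 and Chgb, with Ptprn, were the most abundant transcripts of the set. Chga, which encodes chromogranin A, had 2924, 2851, 2931 and 2916 CPM with the Yy1 plasmid and 2856, 2756, 3208 and 2727 CPM with the empty plasmid. Scg2, which encodes secretogranin II, had 2401, 2566, 2393 and 2572 CPM with the Yy1 plasmid and 2422, 2356, 2840 and 2366 CPM with the empty plasmid. Chgb, which encodes chromogranin B, had 1018, 965, 992 and 969 CPM with the Yy1 plasmid and 1032, 876, 1340 and 936 CPM with the empty plasmid. In all 3 genes empty plasmid 33 was the highest of the 8 libraries, and the groups overlapped. This library was the highest for 10 and the lowest for 7 of the 40 tested genes of the set, and the highest for 19.4% of all tested genes. Scg3, a granin that binds chromogranin A, had 152, 166, 160 and 170 CPM with the Yy1 plasmid and 157, 157, 185 and 157 CPM with the empty plasmid, again highest in empty plasmid 33. Vgf, a cargo protein cut into secreted peptides, had 265, 263, 251 and 238 CPM with the Yy1 plasmid and 251, 267, 233 and 252 CPM with the empty plasmid, and was lowest in that library.

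The granin ratios moved with that library. Over all libraries the log2 ratio was 0.01 (SE 0.0483) for Chga, -0.08 (SE 0.134) for Chgb and -0.01 (SE 0.0542) for Scg2, each with an adjusted p by edgeR of 0.997. Without empty plasmid 33 it was 0.06 (SE 0.0349) for Chga, 0.06 (SE 0.0435) for Chgb and 0.06 (SE 0.0375) for Scg2, with adjusted p by edgeR of 0.798, 0.877 and 0.843 in that order of genes. Neither fit called a granin. The summed level of the 5 granins was 6790 ± 60.8 CPM with the Yy1 plasmid and 6843 ± 656 CPM with the empty plasmid (SD, n = 4 each). Without library 33 the empty plasmid sum was 6523 ± 170 CPM (SD, n = 3).

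The transcripts of Chga, Chgb, Scg2 and Scg3 are rich in purines, the bases A and G. Chgb had a purine share of 60.1% over its longest coding transcript, Scg2 55.9%, Chga 55.3% and Scg3 55%, against a median of 50.9% over genes of at least 100 CPM. Across the 19 genes of the set at that level, the difference of library 33 from the other 3 empty plasmid libraries had a Pearson r of 0.82 with the purine share. Across all 2360 genes at that level with a known transcript it was 0.59. These are descriptions across genes of shared libraries, which are no independent replicates. For the Yy1 plasmid libraries the same r lay between -0.24 and 0.14 across the 19 genes. For the empty plasmid libraries 32 and 34 it was -0.79 and -0.80, in values tied to those of library 33, since each library is set against the other 3 of its group. The part of base composition in the granin values was not tested.

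**Figure D2:**
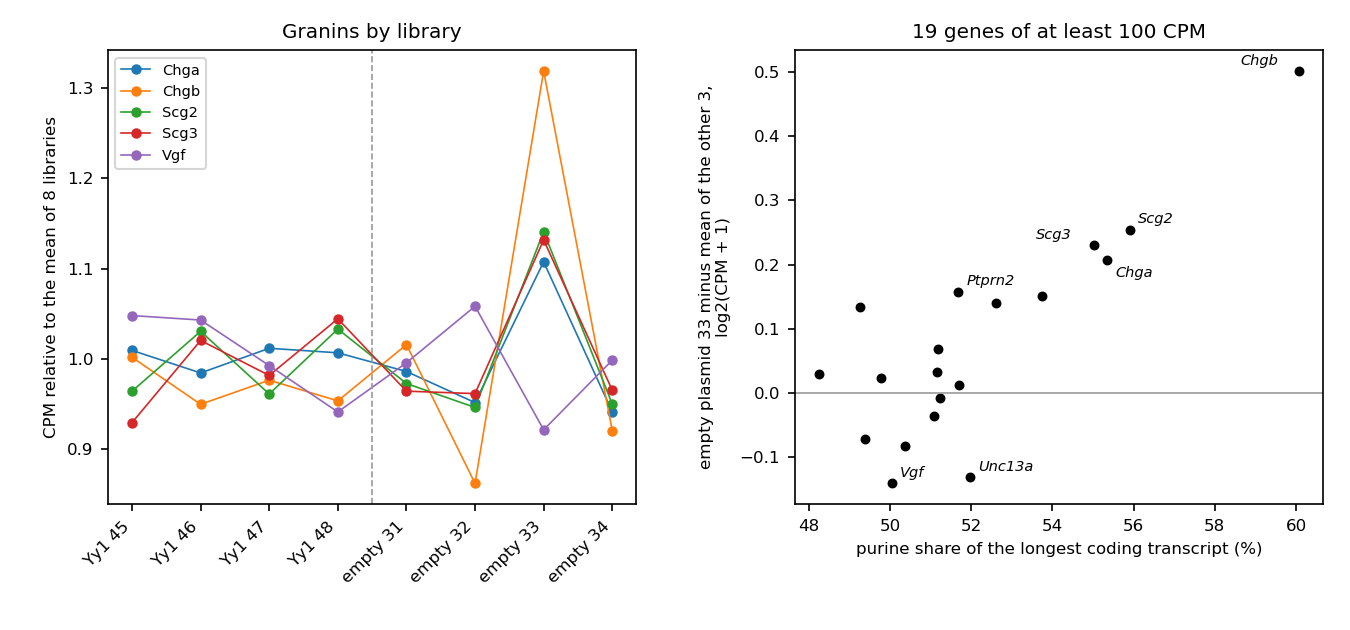
Left, CPM of the 5 granins in each library relative to the gene's mean over 8 libraries, with the Yy1 plasmid left of the dashed line. Right, the difference of empty plasmid 33 from the mean of the other 3 empty plasmid libraries in log2(CPM + 1) against the purine share of the transcript in %, 1 point per gene for 19 genes. Chgb is highest in both, with a difference of 0.50 at a purine share of 60.1%.

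Of the granule membrane proteins, Ptprn was the most abundant. It encodes IA-2, a transmembrane granule protein and autoantigen of diabetes, and had 1382, 1375, 1434 and 1408 CPM with the Yy1 plasmid and 1343, 1389, 1293 and 1346 CPM with the empty plasmid (log2 ratio 0.06, SE 0.0399, adjusted p by edgeR 0.956). Empty plasmid 32 lay within the range of the Yy1 plasmid libraries, so the groups overlapped. Its paralog Ptprn2, which encodes phogrin, averaged 278 ± 17.3 CPM with the Yy1 plasmid and 270 ± 15.4 CPM with the empty plasmid (SD, n = 4 each). Ica1, a BAR-domain protein of Golgi and granules, averaged 151 ± 3.99 CPM with the Yy1 plasmid and 150 ± 9.45 CPM with the empty plasmid (SD, n = 4 each).

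To set genes beside each other, CPM was divided by the length of the longest coding transcript. On this scale of levels Chga led with 1543 ± 19.4 CPM per kb with the Yy1 plasmid and 1533 ± 117 CPM per kb with the empty plasmid. Scg2 was next with 987 ± 39.5 CPM per kb with the Yy1 plasmid and 992 ± 92 CPM per kb with the empty plasmid, below Chga by more than the spread. Ptprn had 394 ± 7.46 CPM per kb with the Yy1 plasmid and 378 ± 11.1 CPM per kb with the empty plasmid, and Chgb 360 ± 8.92 CPM per kb with the Yy1 plasmid and 382 ± 75.3 CPM per kb with the empty plasmid (SD, n = 4 throughout). These 2 changed places between the plasmids and overlapped in the empty plasmid libraries. The change of places rests on library 33, the only empty plasmid library in which Chgb stood above Ptprn per kb. Without it, and before division by length, Chgb averaged 948 ± 78.7 CPM and Ptprn 1359 ± 25.8 CPM with the empty plasmid (SD, n = 3). The order of the leading genes rests on the length chosen. With the median length of the coding transcripts Ptprn led, at 2884 CPM per kb with the Yy1 plasmid and 2766 CPM per kb with the empty plasmid, and with merged exons it stood below Chgb, at 329 CPM per kb with the Yy1 plasmid and 316 CPM per kb with the empty plasmid. With merged exons Chga (1047 ± 80.2 CPM per kb) and Scg2 (992 ± 92 CPM per kb) differed by less than the spread with the empty plasmid. With the Yy1 plasmid they had 1054 ± 13.2 and 987 ± 39.5 CPM per kb on that length. With the longest coding transcript, Cplx1, Syt13 and Snap25 followed the leading genes. Their places also rest on the length, with Syt13 at rank 10 with the median length and Snap25 at rank 12 with merged exons. Unc13b was the lowest of the tested genes with every length.

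Of the SNAREs at the plasma membrane, Snap25 prevailed over its paralog. Snap25, a membrane-bound partner of syntaxin in the fusion complex, had 264, 267, 254 and 269 CPM with the Yy1 plasmid and 254, 261, 244 and 260 CPM with the empty plasmid (log2 ratio 0.05, SE 0.0386, adjusted p by edgeR 0.98). The groups overlapped. Snap23, its widely expressed paralog, averaged 37.1 ± 1.15 CPM with the Yy1 plasmid and 36 ± 0.745 CPM with the empty plasmid (SD, n = 4 each). Per kb, the share of Snap25 in this pair was 90.2 ± 0.25% with the Yy1 plasmid and 90.1 ± 0.29% with the empty plasmid (SD, n = 4 each), a difference smaller than the spread.

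Among the 3 syntaxins, Stx4a was higher per kb than Stx1a. Stx4a, a syntaxin of many tissues, made up 66.7 ± 1.17% with the Yy1 plasmid and 67.5 ± 1.303% with the empty plasmid, and Stx1a, the partner of Snap25 in regulated secretion, 29.1 ± 0.53% with the Yy1 plasmid and 28.6 ± 0.97% with the empty plasmid (SD, n = 4 each). Stx4a had 35.7, 32.7, 36.4 and 32.7 CPM with the Yy1 plasmid and 36, 31.8, 34.2 and 31.2 CPM with the empty plasmid (log2 ratio 0.05, SE 0.0576, adjusted p by edgeR 0.993). Stx1a had 23.3, 21.6, 22.5 and 21.7 CPM with the Yy1 plasmid and 21.2, 20.9, 21.1 and 20.5 CPM with the empty plasmid. Every Yy1 plasmid library of Stx1a lay above every empty plasmid library, but the gene was not called (log2 ratio 0.09, SE 0.0577, adjusted p by edgeR 0.953). Stx3, a syntaxin of epithelial and secretory cells, lay between 3.34 and 5.12 CPM in all libraries (log2 ratio 0.16, SE 0.142, adjusted p by edgeR 0.986).

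Vamp2, the granule SNARE of regulated exocytosis, had 97.5, 98.1, 94.8 and 95.5 CPM with the Yy1 plasmid and 95, 103, 95.3 and 98.5 CPM with the empty plasmid. The groups overlapped (log2 ratio -0.02, SE 0.0405, adjusted p by edgeR 0.997). Of the 3 VAMP genes per kb, Vamp2 made up 61.4 ± 0.76% with the Yy1 plasmid and 61.4 ± 1.532% with the empty plasmid, and Vamp3, a SNARE of recycling vesicles, 33.6 ± 1.061% with the Yy1 plasmid and 33 ± 1.578% with the empty plasmid (SD, n = 4 each). Vamp8, a SNARE of endosomes and of exocrine granules, had 6.99, 8.72, 6.68 and 7.34 CPM with the Yy1 plasmid and 8.11, 9.07, 8.82 and 7.55 CPM with the empty plasmid. Yy1 plasmid 46 lay among the empty plasmid libraries (log2 ratio -0.17, SE 0.1, adjusted p by edgeR 0.946).

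**Figure D3:**
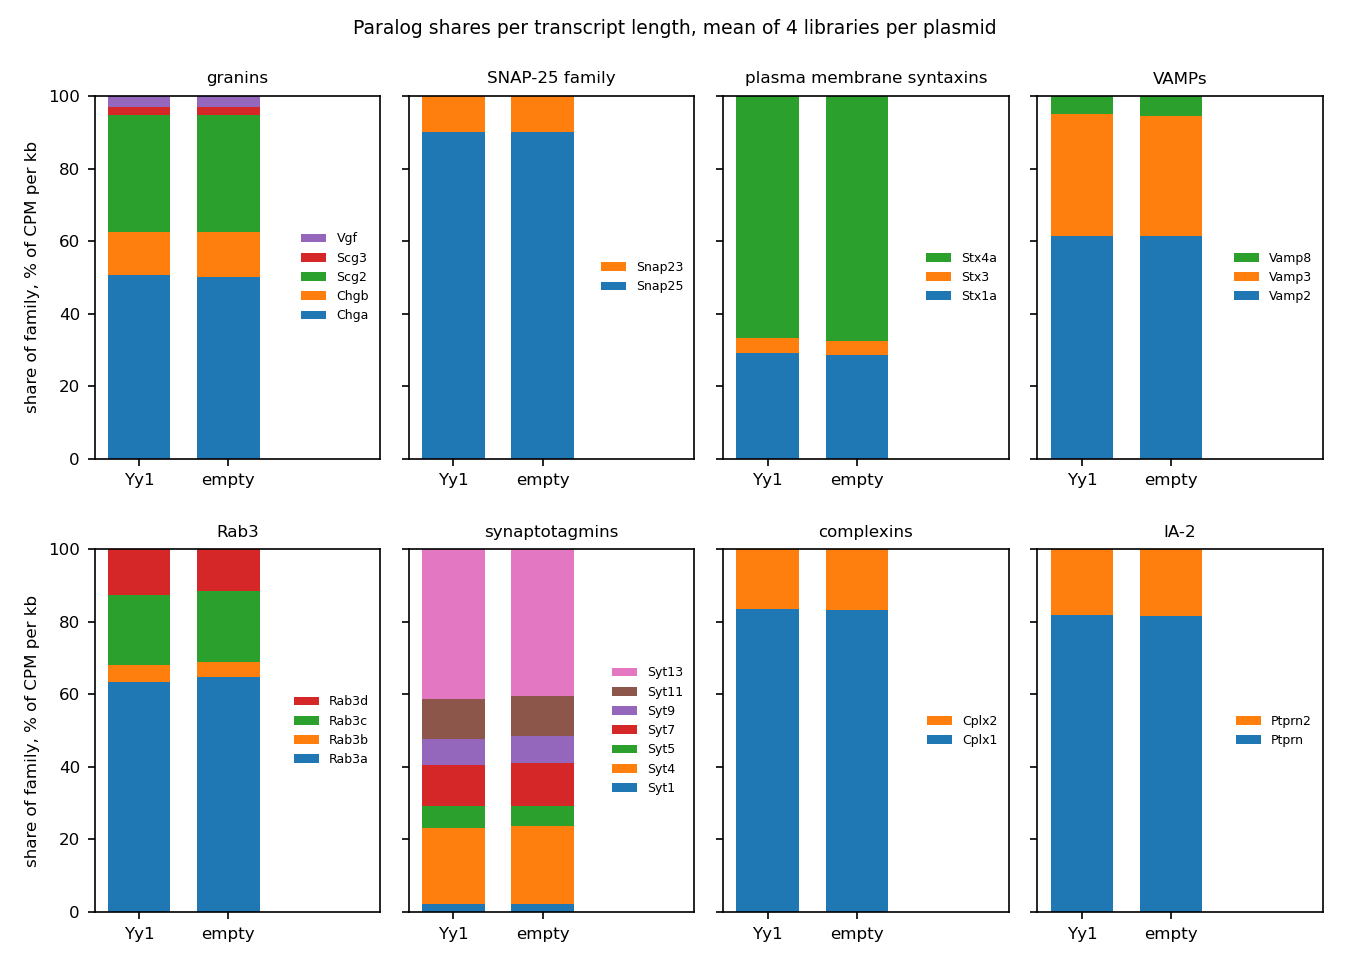
Share of each paralog in its family, in % of the family's summed CPM per kb, as the mean of 4 libraries, with the Yy1 plasmid in the left bar and the empty plasmid in the right bar. Snap25 makes up 90.2% and 90.1% of its pair, and the order of paralogs is the same in both bars of every family drawn.

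Stxbp2 and Stxbp5l act on SNARE assembly. Stxbp2, a Munc18 protein best known from blood and epithelial cells, averaged 21.2 ± 0.781 CPM with the Yy1 plasmid and 20.7 ± 0.955 CPM with the empty plasmid (SD, n = 4 each). Stxbp5l, a tomosyn that can hold syntaxin and Snap25 away from VAMP, had 51.1, 52.7, 47.7 and 53.3 CPM with the Yy1 plasmid and 45, 48, 48.1 and 51.1 CPM with the empty plasmid. Yy1 plasmid 47 lay inside the empty plasmid range (log2 ratio 0.09, SE 0.0499, adjusted p by edgeR 0.937).

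For the priming factors and their scaffolds, 1 paralog of each pair carried nearly all counts. Unc13a, which encodes Munc13-1 and opens syntaxin for assembly, had 276, 263, 252 and 242 CPM with the Yy1 plasmid and 281, 316, 266 and 279 CPM with the empty plasmid. Its log2 ratio was -0.14 (SE 0.0510), with an unadjusted p of 0.0106 and an adjusted p of 0.572 by edgeR. The groups overlapped, and with single libraries left out the log2 ratio ran from -0.18 to -0.09, nearest to 0 without empty plasmid 32. Its paralog Unc13b had 11, 20, 23 and 12 counts with the Yy1 plasmid and 14, 7, 8 and 16 counts with the empty plasmid, and the 95% interval of its fold change reached from 0.722 to 2.07.

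Cadps, which encodes a CAPS priming factor of dense-core granules, averaged 37.9 ± 2.93 CPM with the Yy1 plasmid and 38.9 ± 1.16 CPM with the empty plasmid (SD, n = 4 each). Its paralog Cadps2 had 2, 1, 0 and 2 counts with the Yy1 plasmid and 0, 0, 1 and 1 counts with the empty plasmid. Rims2, a scaffold that ties Rab3 to Munc13 at release sites, had 80.6, 82.9, 79.5 and 82.2 CPM with the Yy1 plasmid and 78.8, 83.6, 85.4 and 87.5 CPM with the empty plasmid (log2 ratio -0.04, SE 0.0423, adjusted p by edgeR 0.991). The groups of Rims2 overlapped. Its paralog Rims1 had 3, 3, 3 and 2 counts with the Yy1 plasmid and 1, 6, 1 and 1 counts with the empty plasmid. A count of 0 still allows 3 counts, which is 0.0900 to 0.145 CPM in these libraries, and neither low paralog was tested.

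All 4 Rab3 genes, whose GTPases sit on granules and bind RIM, were at tested levels. Rab3a, the main Rab3 of neurons, held a share of the family per kb of 63.4 ± 1.009% with the Yy1 plasmid and 64.8 ± 0.33% with the empty plasmid, and Rab3c 19.2 ± 0.92% with the Yy1 plasmid and 19.4 ± 0.71% with the empty plasmid (SD, n = 4 each). With the median coding length the shares were 40.8% with the Yy1 plasmid and 41.9% with the empty plasmid for Rab3a, and 38.5% with the Yy1 plasmid and 39.1% with the empty plasmid for Rab3c. Rab3a had 84.8, 85.1, 87.4 and 85.7 CPM with the Yy1 plasmid and 85, 89.5, 81.3 and 85.2 CPM with the empty plasmid (log2 ratio 0.01, SE 0.041, adjusted p by edgeR 0.997), with overlapping groups. Rab3d, known from exocrine granules, had 40, 42.9, 43.4 and 44.6 CPM with the Yy1 plasmid and 40.7, 41.2, 34.4 and 35.7 CPM with the empty plasmid. It had the smallest p of the set (log2 ratio 0.17, SE 0.0585, unadjusted p 0.00951, adjusted p by edgeR 0.56), and Yy1 plasmid 45 lay below 2 of the empty plasmid libraries.

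Rab3b had 13.5, 14.1, 13.2 and 14.3 CPM with the Yy1 plasmid and 11.4, 12.9, 12.3 and 11.8 CPM with the empty plasmid, without overlap. Its log2 ratio was 0.19 (SE 0.0718), with an unadjusted p of 0.0147 and an adjusted p of 0.659 by edgeR. With single libraries left out, the adjusted p by edgeR was at least 0.293 for Rab3d and at least 0.548 for Rab3b, so neither was called in any of these fits.

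Rab27a, the GTPase that brings granules to the cell periphery, had 66, 64.8, 63.9 and 61.5 CPM with the Yy1 plasmid and 61.7, 64.9, 69.9 and 64 CPM with the empty plasmid (log2 ratio -0.02, SE 0.0454, adjusted p by edgeR 0.997), with overlapping groups. Of its synaptotagmin-like effectors, Sytl5 had 66.9, 68.3, 63.6 and 71.7 CPM with the Yy1 plasmid and 62.2, 64.9, 72.5 and 77.7 CPM with the empty plasmid (log2 ratio -0.03, SE 0.0613, adjusted p by edgeR 0.997). Sytl4, which encodes granuphilin, a docking effector known from beta cells, had 3, 2, 2 and 7 counts with the Yy1 plasmid and 0, 0, 2 and 0 counts with the empty plasmid and was too low to be tested. Rph3al, which encodes the Rab effector Noc2, averaged 30.7 ± 0.942 CPM with the Yy1 plasmid and 31.6 ± 1.91 CPM with the empty plasmid (SD, n = 4 each).

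Syt13, an atypical synaptotagmin without calcium binding, led the 7 synaptotagmins of the set per kb. Its share of these 7 was 41.4 ± 0.83% with the Yy1 plasmid and 40.6 ± 0.76% with the empty plasmid. Syt4, whose calcium binding is impaired, made up 21 ± 0.4% with the Yy1 plasmid and 21.4 ± 0.43% with the empty plasmid. Of the calcium sensors proper, Syt7, a high-affinity sensor known from glucagon secretion, made up 11.5 ± 0.44% with the Yy1 plasmid and 11.7 ± 0.66% with the empty plasmid (SD, n = 4 each). Syt11, a relative of Syt4, was close to it at 10.8 ± 0.2% with the Yy1 plasmid and 11 ± 0.2% with the empty plasmid. The order rests on the length chosen, since with the median coding length Syt7 led with 28% with the Yy1 plasmid and 28.6% with the empty plasmid, ahead of Syt13 with 26.1% with the Yy1 plasmid and 25.6% with the empty plasmid, and Syt11 made up 8.43% with the Yy1 plasmid and 8.54% with the empty plasmid. Syt1, the fast sensor of synapses, had the smallest share, 2.23 ± 0.12% with the Yy1 plasmid and 2.3 ± 0.21% with the empty plasmid.

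Syt13 had 476, 463, 493 and 478 CPM with the Yy1 plasmid and 467, 443, 462 and 455 CPM with the empty plasmid (log2 ratio 0.06, SE 0.0382, adjusted p by edgeR 0.947). Yy1 plasmid 46 lay below empty plasmid 31, so the groups overlapped. Syt7 had 232, 243, 229 and 228 CPM with the Yy1 plasmid and 214, 232, 248 and 232 CPM with the empty plasmid (log2 ratio 0.01, SE 0.0434, adjusted p by edgeR 0.997), also with overlap. Syt5, a calcium-binding synaptotagmin of dense-core granules, had 34.6, 32.6, 29.2 and 32.6 CPM with the Yy1 plasmid and 29.8, 30.3, 27 and 30.5 CPM with the empty plasmid. Its unadjusted p was 0.0381 at a log2 ratio of 0.13 (SE 0.0594), its adjusted p by edgeR was 0.888, and Yy1 plasmid 47 lay below 3 empty plasmid libraries. Syt1, Syt4, Syt9 and Syt11 had log2 ratios of -0.01, 0.01, -0.04 and 0.02. Doc2b, a soluble calcium sensor, had 1, 0, 0 and 0 counts with the Yy1 plasmid and 1, 1, 0 and 2 counts with the empty plasmid and was not tested.

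Cplx1, a complexin that clamps partly zipped SNARE complexes until calcium arrives, had 325, 350, 338 and 335 CPM with the Yy1 plasmid and 310, 353, 337 and 328 CPM with the empty plasmid (log2 ratio 0.02, SE 0.0424, adjusted p by edgeR 0.997). The groups overlapped, and the share of Cplx1 in the complexin pair per kb was 83.5 ± 0.54% with the Yy1 plasmid and 83.1 ± 1.136% with the empty plasmid (SD, n = 4 each). Napa, which encodes the adaptor alpha-SNAP, had 118, 130, 129 and 128 CPM with the Yy1 plasmid and 122, 131, 132 and 125 CPM with the empty plasmid (log2 ratio -0.01, SE 0.0424, adjusted p by edgeR 0.997). Nsf, the ATPase that it recruits, averaged 116 ± 4.4 CPM with the Yy1 plasmid and 116 ± 3.84 CPM with the empty plasmid (SD, n = 4 each). Its promoter held the longer Yy1 motif shown above, and its log2 ratio was 0.01.

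**Figure D4:**
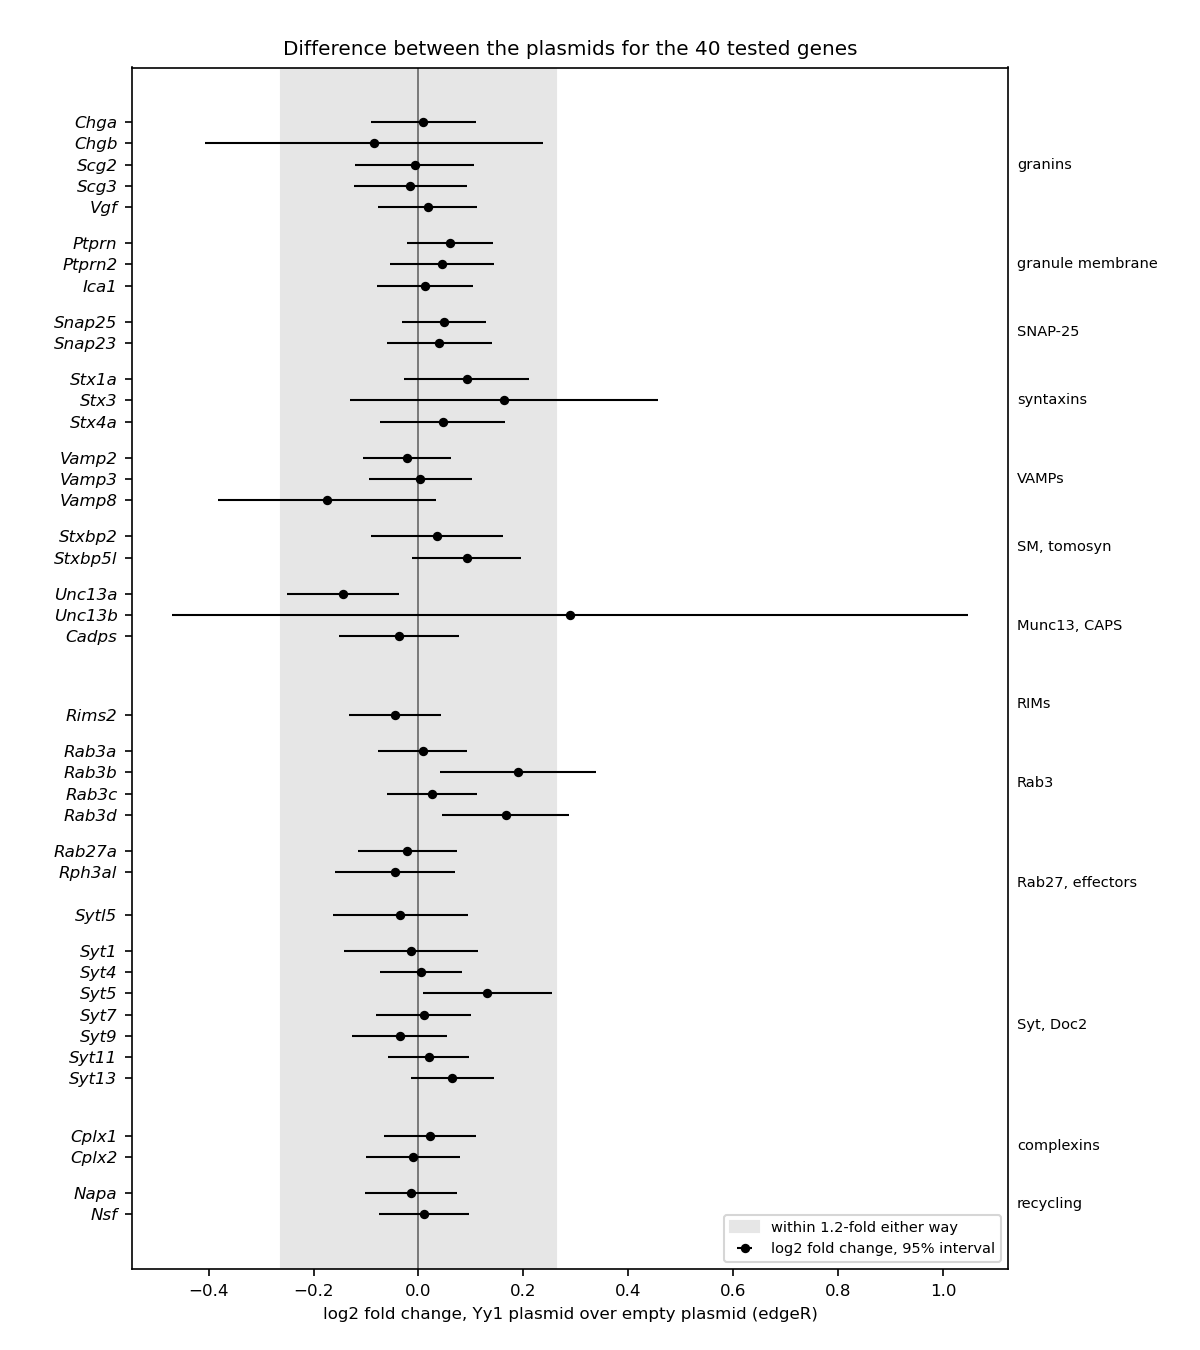
Log2 ratio (Yy1 plasmid over empty plasmid) of the 40 tested genes by role, with the 95% interval from edgeR as a line and the range within 1.2-fold in grey. The intervals of 34 genes lie within the grey band, and those of Unc13a, Rab3b, Rab3d and Syt5 do not cross 0 but had adjusted p of 0.56 or more. Without empty plasmid 33, a fit not drawn here, the interval of Syt5 crosses 0.

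Together the 44 genes made up 1.196% to 1.207% of all counts in the Yy1 plasmid libraries and 1.16% to 1.28% in the empty plasmid libraries, highest in library 33. Their summed level was 12039 ± 88.9 CPM with the Yy1 plasmid and 12006 ± 643 CPM with the empty plasmid (SD, n = 4 each), and 11689 ± 117 CPM (SD, n = 3) for the empty plasmid without library 33. More than any other role the granins set this sum. The synaptotagmins of the set with Doc2b, Syt13 and Syt4 included, summed to 1277 ± 11.3 CPM with the Yy1 plasmid and 1251 ± 15.4 CPM with the empty plasmid. The SNAP-25 family summed to 301 ± 7.16 CPM with the Yy1 plasmid and 291 ± 8.19 CPM with the empty plasmid (SD, n = 4 each).

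Other genes of the pathway came from lists chosen by function, with 131 genes, of which 130 were matched and 113 tested. By edgeR 0 of them were called, against 0.515% of all tested genes, and 2 (Syt17 and Rimbp2) had an unadjusted p under 0.05, against 5.42%. DESeq2 and limma-voom also called 0. Of the 113 log2 ratios, 59 were positive and 54 negative, with a median of 0.00344. Rimbp2, which links release sites to calcium channels, had 178, 179, 175 and 178 CPM with the Yy1 plasmid and 191, 195, 184 and 190 CPM with the empty plasmid. Its groups did not overlap, as was so for 3 of the 113 genes (2.65%), against 3.95% of all tested genes. Rimbp2 was not called (log2 ratio -0.10, SE 0.037, adjusted p by edgeR 0.634). Syt17, a protein related to the synaptotagmins, had 24, 17, 17 and 15 counts with the Yy1 plasmid and 8, 8, 8 and 5 counts with the empty plasmid (log2 ratio 1.04, SE 0.365, adjusted p by edgeR 0.56). Among proteins that process or accompany the hormone, Pcsk2, the convertase of alpha cells, averaged 2888 ± 53.8 CPM with the Yy1 plasmid and 2818 ± 37.7 CPM with the empty plasmid (SD, n = 4 each). Glucagon's own transcript Gcg averaged 21291 ± 372 CPM with the Yy1 plasmid and 21228 ± 547 CPM with the empty plasmid (SD, n = 4 each), with a log2 ratio of 0.00426. The 95% interval of the fold change lay within 1.2-fold for 87 of the 113 genes, or 77%, against 58.2% of all tested genes. This share depends on level, since it was 97.1% among all tested genes with an average log2 CPM of at least 5. The share called does too, with 1 of the 6384 genes at that level. The pathway genes were not split by level.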

How the data were processed

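Poly(A) RNA of 8 αTC1-6 samples was sequenced from strand-specific libraries, per the labels' protocols. Tools named in the submitters' processing notes are fastp and kallisto, with build GRCm39. The way transcripts were summed to genes is not given in the sources used here. The table deposited by the authors holds one estimated count (kallisto's expected count) per Ensembl gene and sample, not scaled for depth, and 46.6% of its values above 0 were fractional. These were rounded to whole numbers. All 8 columns were tied to samples by the labels.

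Symbols and transcript lengths came from GENCODE mouse release M21, an older build, so no gene coordinates are given apart from RefSeq promoter windows of build GRCm38.p6. Estimated counts share reads between similar paralogs. Low genes were left out by filterByExpr (count at least 10, total at least 15). TMM factors were used, and genes were tested two-sided across all 15916 genes with edgeR 4.0.16 in R 4.3.3 (glmQLFit and glmQLFTest, robust; Benjamini-Hochberg, threshold 0.05). The SE is the log2 fold change divided by the square root of F, and 95% intervals use the test's degrees of freedom. The steps were tested on simulated data. Levels per kb use the longest coding transcript of the GENCODE basic set, chosen after the planned median length proved to be under 1 kb for Ptprn, Syt5 and Nsf. Alternatives were RLE, upper-quartile and no scaling, no filter, 1 CPM in at least 4 libraries, DESeq2 1.42.0, limma-voom (3.58.1), Yy1 left out, each library left out, and the median coding and merged exon lengths.

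The genes and lists were chosen with earlier results of these data known. Values in every library are given for the 10 genes of the set with the smallest p, for the leading gene of each role per kb, and for Rab27a and low or contrasting paralogs, which were added after their values were seen. Of the other pathway genes, those named came from the 10 smallest p-values or the 10 highest levels. Totals ran from 20679804 to 33347445 counts. A count of 0 allows up to 3 counts, and this limit covers counting error only.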

Additional observations from a re-analysis of the deposited data

Results flagged for a closer look

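Among 80 sets of 4 libraries, 40 genes with each plasmid, Dixon's test at the 95% level singled out 4 values. That is no more than the share of about 1 in 20 that chance gives. In 3 of them the library was empty plasmid 33, which lay above the other 3 empty plasmid libraries for Scg2 (2840 CPM), Scg3 (185 CPM) and Ptprn2 (293 CPM). In the last, Yy1 plasmid 45 lay below the other 3 Yy1 plasmid libraries for Napa (118 CPM). For Ptprn2 the value of empty plasmid 33 lay within the range of the Yy1 plasmid libraries, whose highest was 294 CPM, and for Scg2 and Scg3 it lay above all of them.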

How the results depend on the processing

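The 0 calls among the 44 genes and among the other pathway genes were unchanged under each of the 16 alternatives, and the smallest adjusted p of a gene of the set was 0.153, for Unc13a with no filter. The count of called genes in the whole table was 82 (79 higher), against 174 (151 higher) with no filter and 54 (52 higher) with 1 CPM in 4 libraries, where more or fewer genes were tested, and 65 to 87 with a library left out. The median log2 fold change of the set stayed between 0.00223 and 0.0282. Of 639 values of single genes, 599 kept their sign, and 40 values of 18 genes did not. Apart from Scg2 with upper-quartile scaling (0.000821), these were estimates near 0 with a library left out, whose log2 fold changes ran as follows: Chga -0.0174 to 0.0638, Chgb -0.161 to 0.0568, Cplx1 -0.0115 to 0.0524, Cplx2 -0.043 to 0.0247, Ica1 -0.0195 to 0.0507, Napa -0.0364 to 0.0157, Nsf -0.0142 to 0.0283, Rab27a -0.0495 to 0.0121, Rab3a -0.0135 to 0.0312, Scg2 -0.0347 to 0.0603, Scg3 -0.0422 to 0.0444, Syt1 -0.058 to 0.0479, Syt4 -0.0109 to 0.0205, Syt7 -0.0285 to 0.0434, Sytl5 -0.0869 to 0.0265, Vamp2 -0.0403 to 0.00182, Vamp3 -0.0141 to 0.0335, Vgf -0.0161 to 0.0488. The cause was not tested. The other 22 genes kept their sign throughout, among them Unc13a, Rab3b, Rab3d and Syt5. Levels and orders per kb depend on the length used, as given for Ptprn, the Rab3 genes and the synaptotagmins. Snap25 made up 81.7% of its pair over all libraries with merged exons, and among the synaptotagmins Syt7 (28.3%) led Syt13 (25.8%) with the median coding length. No paired analysis was possible because the groups share no replicate numbers. Unc13b, with 7 to 23 counts a library, and the 4 untested genes are limited by depth.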

Other observations

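Base composition moved with single libraries beyond the granins. Over the 2360 genes of at least 100 CPM, the difference of a library from the other 3 of its group had a Pearson r with the purine share of between -0.08 and 0.16 in the Yy1 plasmid libraries, and of 0.04 in empty plasmid 31, -0.56 in 32, 0.59 in 33 and -0.33 in 34. With the GC share the r was 0.17 in Yy1 plasmid 45, -0.34 in 46, 0.36 in 47 and -0.25 in 48, and -0.03 in empty plasmid 31, 0.21 in 32, 0.09 in 33 and -0.33 in 34. Libraries of both groups thus deviated along with a measure of base composition. The r was largest with GC in the Yy1 plasmid libraries 46 and 47 and with purines in the empty plasmid libraries 32 and 33. Empty plasmid 34 deviated along with both, at -0.33 each. Values within a group are tied, since each library is set against the other 3. The log2 fold change between the plasmids had an r with the purine share of -0.10 over the same genes, and of -0.52 over the 19 genes of the set, Chgb included. The values describe genes of shared libraries and carry no p.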
